A study of Homo sapiens with 16 samples.

Results

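Heat shock proteins and their partner proteins are the molecular chaperones that fold new polypeptides, refold damaged ones and pass unfoldable ones to degradation. HSP70 proteins bind and release unfolded chains in a cycle driven by ATP. J-domain proteins of the DNAJ families bring substrates to HSP70 and start its ATP hydrolysis, while HSP110 proteins and BAG proteins exchange its nucleotide. HSP90 proteins finish the folding of kinases and receptors, the chaperonin HSPD1 with its lid HSPE1 folds proteins inside mitochondria, and small heat shock proteins hold unfolded chains without using ATP. Heat shock factors are the transcription factors that bind heat shock elements in the promoters of many of these genes.

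The genes were chosen by name. Every protein-coding gene whose symbol begins with HSPA, HSPB, HSPD1, HSPE1, HSPH1, HSP90, DNAJA, DNAJB or DNAJC, or is BAG or HSF followed by a number, was taken if both deposited tables held it. This gave 74 of 26410 genes, of which 15169 are protein-coding. They are 3 HSP90 genes, 11 HSP70 and HSP110 genes, HSPD1 and HSPE1, 6 small heat shock protein genes, 40 J-domain genes (3 DNAJA, 11 DNAJB and 26 DNAJC), 6 BAG genes, 4 HSF genes, and HSPBP1 and HSPBAP1, which match by prefix and are outside these families. HSPB11, now named IFT25, is a member by its older symbol. The stress-inducible HSP70 genes HSPA1A, HSPA1B and HSPA6, and DNAJA4, HSPA1L, HSPB2 and HSPB3, were not analysed here.

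RNA was sequenced from SH-SY5Y cells, a human neuroblastoma line, to ask how loss of the calcium-permeable channel TRPM2 changes gene expression with and without doxorubicin, a topoisomerase poison used in chemotherapy. Scr clones Scr13 and Scr16 had received Cas9 with a scrambled guide, and clones KO11 and KO28 had received it with a TRPM2 guide. All clones also received a donor vector with GFP and puromycin markers, were selected in puromycin and grew from single cells. Each clone was sequenced in 2 replicates after 24 h without drug and 2 after 24 h with doxorubicin, at 0.3 µM by the sample labels and 3 µM by the series design text, so that the 4 groups (Scr untreated, Scr doxorubicin, TRPM2 KO untreated and TRPM2 KO doxorubicin) held 4 libraries each. The 24 h without drug is the study's own statement, and the deposited names of the untreated libraries give another time point. Replicates of a clone share that clone, and each genotype rests on 2 clones.

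Libraries held between 10481177 and 25086085 reads on genes. Levels are given in normalized CPM, the authors' read counts scaled to library size and to a normalization factor, and 3 reads corresponded to between 0.118 and 0.285 normalized CPM. Differences are log2 fold changes of (normalized CPM + 1), which understate the change of low genes. A gene is said to rise, fall or pass the test only where limma's p-value, adjusted by Benjamini-Hochberg over all genes tested, was below 0.05. The test took in genes that reached 1 normalized CPM in 4 or more of the libraries compared. In bulk RNA, fewer cells with a transcript and less transcript per cell cannot be told apart.

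TRPM2 itself (chr21:44350163-44443081, plus strand, GRCh38) had more RNA in untreated libraries labelled TRPM2 KO than in untreated Scr libraries. In untreated libraries labelled TRPM2 KO it lay at 1.93 and 2.23 normalized CPM in KO11 and at 1.41 and 2.19 in KO28, while it lay at 0.118 and 0.115 in Scr13 and had 0 reads in both Scr16 libraries, which allows up to 0.184 and 0.170. The log2 difference was 1.47 (SE 0.27, adjusted p = 0.00154), and the groups did not overlap. After doxorubicin the libraries labelled TRPM2 KO lay at 1.22, 1.83, 1.37 and 0.658, Scr13 at 0.0594 and 0.0631, and Scr16 at 1.33 and 0.390, so that the groups overlapped. By the study's methods the start of the coding sequence was removed and the rest put out of frame, so reads over the whole gene do not check the deletion. The study states that it checked the clones by RT-PCR and Western blotting. The libraries are therefore called by their labels throughout.

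Markers of the line and of other cells were then checked. Of the 10 adrenergic neuroblastoma markers 9 averaged at least 1 normalized CPM, led by STMN2 with a mean of 1629. Of 10 mesenchymal-type markers 8 did, led by VIM with 275 (87.3 to 430), and PRRX1 was not analysed here. The fibroblast collagens COL1A1 and COL1A2 averaged 9.70 (1.51 to 21.9) and 1.07, and the endothelial, haematopoietic and liver markers PECAM1, PTPRC, CD68 and ALB were not analysed here.

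Chaperone promoters carry short elements that can be read directly from the sequence. The heat shock element was searched as GAA, any 2 bases, TTC, any 2 bases and GAA, and the endoplasmic reticulum (ER) stress element as CCAAT, any 9 bases and CCACG, on both strands, in the 300 bases from 250 before to 50 after each RefSeq start site (GRCh38.p14). The heat shock element was present in 0.490% of 35116 promoters and the ER stress element in 0.0769%. Among 91 promoters of the member genes, the heat shock element was found in 6.59%, those of HSP90AA1, HSP90AB1, HSPA8, HSPD1, DNAJA1 and DNAJB6, and the ER stress element in 2.20%, those of HSPA5 and HSP90B1. HSPH1, HSPA4 and the 3 start sites of HSPA4L held neither in this window. The 4 promoters below belong to matched genes that passed the test with doxorubicin; they were picked after their values were seen. Matched letters are in capitals, on either strand, and all sequences read 5′ to 3′ along the gene. HSPA5 lies on the minus strand at chr9:125241294-125241593, HSP90B1 on the plus strand at chr12:103930160-103930459, HSPA8 on the minus strand at chr11:123062087-123062386 and HSPD1 on the minus strand at chr2:197499791-197500090.
HSPA5: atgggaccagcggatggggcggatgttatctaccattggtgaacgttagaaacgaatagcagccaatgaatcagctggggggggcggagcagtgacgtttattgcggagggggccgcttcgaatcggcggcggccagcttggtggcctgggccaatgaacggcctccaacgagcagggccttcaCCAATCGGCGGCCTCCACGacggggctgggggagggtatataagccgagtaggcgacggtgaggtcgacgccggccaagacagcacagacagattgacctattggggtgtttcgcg
HSP90B1: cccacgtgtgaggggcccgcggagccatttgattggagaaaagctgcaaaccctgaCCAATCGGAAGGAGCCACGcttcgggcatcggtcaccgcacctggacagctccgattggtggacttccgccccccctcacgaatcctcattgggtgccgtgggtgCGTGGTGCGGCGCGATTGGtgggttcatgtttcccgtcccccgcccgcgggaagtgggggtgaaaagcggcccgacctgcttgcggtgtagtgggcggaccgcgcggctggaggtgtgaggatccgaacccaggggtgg
HSPA8: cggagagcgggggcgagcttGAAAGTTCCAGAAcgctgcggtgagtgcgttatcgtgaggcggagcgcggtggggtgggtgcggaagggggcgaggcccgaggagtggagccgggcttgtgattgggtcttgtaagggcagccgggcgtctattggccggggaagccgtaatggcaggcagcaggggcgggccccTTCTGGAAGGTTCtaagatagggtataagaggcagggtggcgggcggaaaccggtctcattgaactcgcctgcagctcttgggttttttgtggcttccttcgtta
HSPD1: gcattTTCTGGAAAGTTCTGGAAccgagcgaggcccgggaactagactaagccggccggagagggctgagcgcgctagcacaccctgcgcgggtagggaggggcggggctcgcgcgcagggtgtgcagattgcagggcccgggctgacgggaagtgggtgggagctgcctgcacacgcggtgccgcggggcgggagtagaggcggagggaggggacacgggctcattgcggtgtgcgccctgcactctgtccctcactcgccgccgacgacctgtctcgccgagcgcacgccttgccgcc
In HSPD1 the capitals are 2 overlapping matches, one on each strand. HSP90B1 and HSPA8 hold 2 separate matches each. A match describes the letters and not a bound site.

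The chaperone genes spanned a wide range of levels. Of the 74 members 16 averaged at least 100 normalized CPM over the 16 libraries, 42 lay between 10 and 100, 7 between 1 and 10, and 9 below 1. Per kilobase of exon, the cytosolic HSP90 gene HSP90AB1 was highest at a level of 523 normalized CPM per kb, followed by HSP90AA1 at 323, the constitutive HSP70 gene HSPA8 at 282 and the J-domain gene DNAJA1 at 100. HSP90B1, the HSP90 of the ER, HSPB1, the main small heat shock protein, HSPD1 and HSPA5, the HSP70 of the ER also known as BiP, followed at 98.7, 96.9, 86.5 and 65.7. HSPE1 reached a level of only 5.36 normalized CPM per kb beside its partner HSPD1. HSPE1 lies in the same-strand readthrough locus HSPE1-MOB4 and has 26 named pseudogenes, so its reads may be split. DNAJA3, with a mean of 0.512 normalized CPM, overlaps 2 same-strand loci. HSPA8 and HSPD1 have 17 named pseudogenes each, and DNAJA1 has 6. Members together took between 0.818% and 1.06% of the reads. Of the 74, 66 passed the filter on low values in at least one comparison and 8 did not.

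Doxorubicin lowered several of the abundant folding chaperones and raised HSPA4L. In Scr clones 13 of 66 tested members passed the test, 5 of them higher and 8 lower, against 12.6% of all 15325 genes tested (7.09% higher and 5.53% lower). In clones labelled TRPM2 KO 14 of 66 passed, 7 higher and 7 lower, against 17.8% of all genes (10.2% higher and 7.6% lower). Members thus passed at 19.7% in Scr and 21.2% in TRPM2 KO. The median log2 fold change of members was −0.05 in Scr and −0.03 in TRPM2 KO, beside −0.01 and 0.02 for all genes tested. DNAJB2, DNAJC4, DNAJC9, HSP90B1, HSPA4L, HSPA5, HSPD1 and HSPH1 passed in both genotypes, all 8 with the same sign. They made up 61.5% of the members called in Scr and 57.1% of those called in TRPM2 KO. Of the 19 members called in either genotype, 15 had the same sign in all 4 clones, the exceptions being BAG6, DNAJB14, DNAJC21 and HSPA4. These members were picked by calls on the same clones, so the shared sign is partly set by the choice and is no separate support. The Scr count was 6 without the first doxorubicin replicate of Scr13, 2 (HSPA4L and HSPA5) without that clone and 7 without Scr16 (HSPA4L, HSPA5, HSPA8, HSP90B1, HSPH1, HSPD1 and DNAJC4). The count in TRPM2 KO was 6 without KO11 (HSPA4L, HSPD1, HSPBP1, DNAJB5, DNAJB14 and DNAJC16) and 7 without KO28 (HSPA4L, HSPA5, HSP90B1, HSPH1, HSPD1, DNAJC9 and HSF1).

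**Figure D1:**
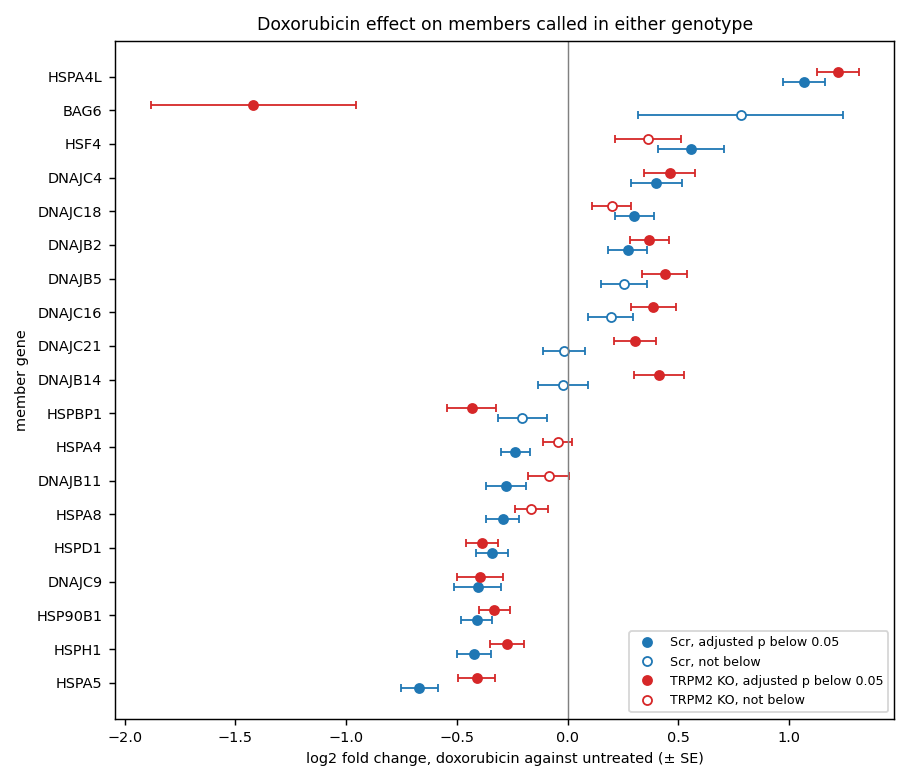
Log2 fold change of (normalized CPM + 1), doxorubicin against untreated, on the x axis for the 19 members called in either genotype (y axis), with bars of 1 SE; filled points have an adjusted p below 0.05. HSPA4L lies far to the right in both genotypes, HSPA5, HSPH1, HSP90B1, DNAJC9 and HSPD1 lie to the left in both, and BAG6 lies on opposite sides with wide errors.

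HSPA4L, an HSP110-type member of the HSP70 family (chr4:127781821-127840733, plus strand), had the largest rise of any member with doxorubicin. In untreated Scr libraries it lay at 45.0 and 34.9 normalized CPM in Scr13 and at 37.7 and 35.4 in Scr16, and with doxorubicin at 83.4 and 77.5 in Scr13 and at 93.6 and 70.6 in Scr16. The TRPM2 KO libraries lay at 53.5 and 48.4 in KO11 and at 42.1 and 44.3 in KO28 untreated, and at 122, 114, 106 and 103 with doxorubicin. All 8 treated libraries lay above all 8 untreated ones. The log2 fold change was 1.07 in Scr (SE 0.09, adjusted p = 1.92e-09) and 1.22 in TRPM2 KO (SE 0.09, adjusted p = 7.05e-11), which is 2.12-fold and 2.36-fold on group means. HSPA4L passed in both genotypes under all 29 alternatives. It overlaps the same-strand locus AC093591.3 in GENCODE 29, so a part of its reads could belong there. Its close relatives moved the other way. HSPH1, the HSP110 protein that exchanges the nucleotide of HSP70, and HSPA4, a further HSP110 protein, both fell in Scr.

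Several ER chaperones fell. HSPA5 (chr9:125234853-125241330, minus strand) lay at 315 and 276 normalized CPM in Scr13 and at 288.5 and 325 in Scr16 untreated, and at 152 and 202 in Scr13 and at 200 and 204 in Scr16 with doxorubicin. The TRPM2 KO libraries lay at 326 and 317 in KO11 and at 284 and 294 in KO28 untreated, and at 219 and 248 in KO11 and at 203 and 252 in KO28 with doxorubicin. Treated and untreated libraries did not overlap in either genotype. The log2 fold change was −0.67 in Scr (SE 0.08, adjusted p = 1.15e-06) and −0.41 in TRPM2 KO (SE 0.08, adjusted p = 6.80e-04). HSP90B1, which folds secreted and membrane proteins, went from 525 ± 14.8 (SD, n = 4) to 396 ± 32.6 in Scr and from 520 ± 39.9 to 413 ± 26.1 in TRPM2 KO. Its log2 fold changes were −0.41 (SE 0.07, adjusted p = 1.34e-04) and −0.33 (SE 0.07, adjusted p = 0.00104). Without clone KO11 the TRPM2 KO calls of HSPA5 and HSP90B1 were lost (adjusted p = 0.0923 and 0.193), as was that of HSP90B1 in Scr without clone Scr13 (adjusted p = 0.0576). DNAJB11, an ER J-domain partner of HSPA5, fell in Scr by 0.28 on the log2 scale (adjusted p = 0.0421) and had −0.09 in TRPM2 KO, where it did not pass. The Scr call of DNAJB11 was lost without either untreated KO11 library or without any one Scr library other than the second doxorubicin replicate of Scr13 (adjusted p up to 0.137). HSPA5 and HSP90B1, whose promoters hold the ER stress element printed above, passed in both genotypes. Of the 9 ER members 3 fell in Scr and 2 in TRPM2 KO, beside 5.53% and 7.6% lower among all genes tested. DNAJC10, an ER disulfide reductase with a J domain, had log2 fold changes of 0.06 and 0.05, and HSPA13 had −0.11 and 0.02.

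**Figure D2:**
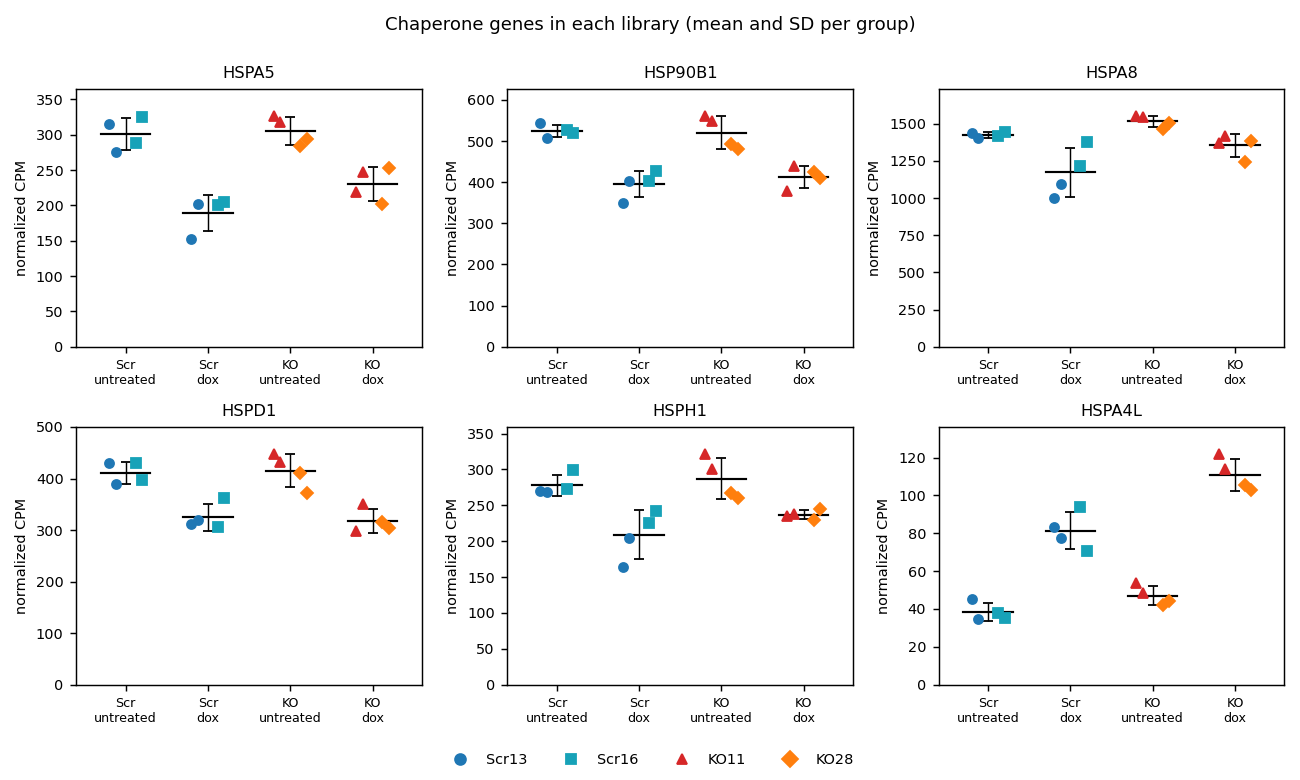
Normalized CPM (y axis, from 0) of HSPA5, HSP90B1, HSPA8, HSPD1, HSPH1 and HSPA4L in each of the 16 libraries by group (x axis), with clones by symbol and the group mean ± SD (n = 4) in black. HSPA4L more than doubled on group means in both genotypes, while the other genes had lower means with doxorubicin, with the Scr13 doxorubicin libraries lowest in HSPA8 and HSPH1.

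ER genes outside the naming rule were listed separately. The list joins chaperones and folding enzymes with XBP1, ATF6, ERN1 and DDIT3, regulators of the unfolded protein response, and SEL1L, which acts in ER-associated degradation, none of which passed. Of the 20 genes, all tested, 6 fell in Scr and 5 fell in TRPM2 KO, that is 30% and 25%, beside 5.53% and 7.6% lower among all genes tested. CALR, the lectin chaperone calreticulin, fell by 0.43 and 0.27 on the log2 scale, and the disulfide isomerases PDIA3, PDIA4 and PDIA6 fell by 0.39, 0.32 and 0.39 in Scr and by 0.32, 0.29 and 0.37 in TRPM2 KO. HYOU1, the HSP110-type partner of HSPA5, fell in Scr by 0.22 and P4HB by 0.23, and MANF fell in TRPM2 KO by 0.43. The most abundant gene of the list, CANX, averaged 491 normalized CPM and did not pass. Together the list summed to 2969 ± 75.1 normalized CPM (SD, n = 4) in Scr untreated, 2529 ± 64.2 in Scr doxorubicin, 2992 ± 88.3 in TRPM2 KO untreated and 2648 ± 111 in TRPM2 KO doxorubicin. The median log2 fold change of the list was −0.18 in Scr and −0.06 in TRPM2 KO.

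Among cytosolic HSP70 and HSP110 genes HSPH1 fell in both genotypes. HSPH1 lay at 270, 269, 273 and 299 normalized CPM in Scr untreated and at 165 and 205 in Scr13 and 225 and 243 in Scr16 with doxorubicin. In TRPM2 KO HSPH1 lay at 321, 300.5, 268 and 260 untreated and at 235, 237, 230 and 245 with doxorubicin. The groups did not overlap in either genotype, and the log2 fold changes were −0.42 in Scr (SE 0.08, adjusted p = 2.74e-04) and −0.27 in TRPM2 KO (SE 0.08, adjusted p = 0.0115). The TRPM2 KO call of HSPH1 was lost without the first untreated replicate of KO11 (adjusted p = 0.0671) and without clone KO11, where the log2 fold change was −0.15 (adjusted p = 0.478). In Scr it was lost without clone Scr13 (log2 fold change −0.29, adjusted p = 0.120). HSPA8 fell in Scr from 1426 ± 19.8 (SD, n = 4) to 1172 ± 163, with a log2 fold change of −0.29 (adjusted p = 0.0076), and missed the threshold without the first doxorubicin replicate of Scr13 (adjusted p = 0.0525). Without clone Scr13 it was −0.15 (adjusted p = 0.511). The TRPM2 KO means went from 1517 ± 37.2 to 1355 ± 77.7, −0.16 on the log2 scale, which did not pass with limma (adjusted p = 0.129) and passed with DESeq2 (adjusted p = 0.0294). HSPA4 fell in Scr by 0.24 (adjusted p = 0.0172) and had −0.04 in TRPM2 KO. Its Scr call was lost without the second untreated or the first doxorubicin replicate of Scr13 (adjusted p = 0.0896 and 0.0819). HSPA2, HSPA12A, HSPA12B, HSPA14 and HSPA9, the HSP70 of mitochondria, passed in neither genotype, except HSPA14, which was lower in TRPM2 KO without the first doxorubicin replicate of KO11 (adjusted p = 0.0434).

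Of the mitochondrial chaperones HSPD1 fell. It lay at 430, 389, 430 and 397 normalized CPM in Scr untreated and at 312, 319, 306 and 363 with doxorubicin, and at 447, 433, 411 and 371 in TRPM2 KO untreated and 299, 350, 316 and 305 with doxorubicin. The groups did not overlap in either genotype. The log2 fold change was −0.34 in Scr (SE 0.07, adjusted p = 0.00131) and −0.39 in TRPM2 KO (SE 0.07, adjusted p = 2.06e-04). The Scr call was lost without clone Scr13 (adjusted p = 0.108). HSPE1 had −0.24 and −0.33 and did not pass. All 6 tested genes of the mitochondrial set (HSPD1, HSPE1, HSPA9, DNAJC11, DNAJC15 and DNAJC19) had log2 fold changes below 0 in both genotypes. Of these only HSPD1 passed, beside 5.53% and 7.6% called lower among all genes tested. A joint decrease of the set was not tested. None of 12 mitochondrial chaperones and proteases outside the rule passed with doxorubicin in either genotype. The share of reads from mitochondrial genes was 4.19% to 4.89% in Scr untreated, 4.86% to 5.83% in Scr doxorubicin, 3.87% to 6.41% in TRPM2 KO untreated and 5.42% to 8.10% in TRPM2 KO doxorubicin, and its part in these differences was not tested.

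The HSP90 genes of the cytosol did not pass with limma at the main settings. HSP90AA1 went from 1727 ± 28.98 (SD, n = 4) to 1485 ± 124 normalized CPM in Scr, −0.22 on the log2 scale, just outside the threshold (adjusted p = 0.0504), and had −0.13 in TRPM2 KO. In Scr it passed with edgeR's quasi-likelihood test (adjusted p = 0.0250), DESeq2 (adjusted p = 0.00443), library size alone, a pseudocount of 0.25 and a filter of 10 reads in every library. HSP90AB1 had −0.04 in Scr and −0.10 in TRPM2 KO. Of the 20 HSP90 and HSP70 cochaperones listed outside the rule, 18 were tested, 1 rose and 5 fell in Scr, and 3 rose and 8 fell in TRPM2 KO, beside 12.6% and 17.8% of all genes called. HSPBP1, an HSP70 nucleotide exchange factor that is also a member by its prefix, is among them and fell in TRPM2 KO by 0.43 (adjusted p = 0.00548). Its log2 fold change was −0.67 in KO28 and −0.20 in KO11, and the call was lost without KO28 (adjusted p = 0.474). FKBP5, an HSP90 immunophilin, fell by 0.33 in Scr and 0.65 in TRPM2 KO. STIP1, which joins HSP70 to HSP90, fell by 0.21 and 0.25, PTGES3 (p23), the most abundant of the list with a mean of 305 normalized CPM, by 0.20 and 0.26, and CACYBP by 0.35 and 0.26. AHSA2P rose in TRPM2 KO by 0.58 on the log2 scale, and STUB1, the ubiquitin ligase that marks chaperone clients, rose by 0.31 and 0.25. Of the 13 tested genes of the cytosolic chaperonin CCT and prefoldin, 5 fell in Scr and 6 in TRPM2 KO, beside 5.53% and 7.6% lower among all genes. TCP1, CCT2, CCT5 and CCT7 fell in both, with log2 fold changes from −0.22 to −0.37. The most abundant, CCT3, with a mean of 411 normalized CPM, fell in TRPM2 KO by 0.24.

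**Figure D3:**
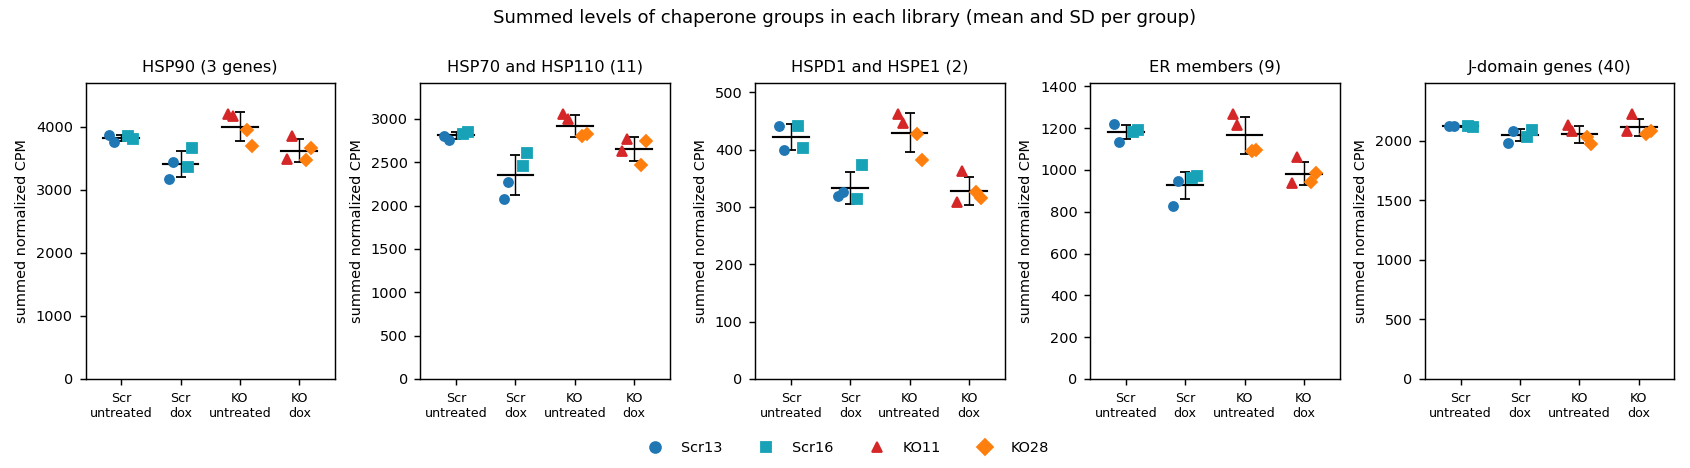
Summed normalized CPM (y axis, from 0) of HSP90 genes, HSP70 and HSP110 genes, HSPD1 with HSPE1, the 9 ER members and the 40 J-domain genes in each library by group (x axis), with clones by symbol and the group mean ± SD (n = 4) in black. The ER members and HSPD1 with HSPE1 do not overlap between treated and untreated libraries of a genotype, while the J-domain sum overlaps in TRPM2 KO and lies within 1973 to 2223 throughout.

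Levels were also summed over groups of genes. The groups share members, with HSPA5 in the ER and HSP70 sums and HSP90B1 in the ER and HSP90 sums, and a sum mostly reflects its most abundant genes. Over the 9 ER members the sum was 1134 to 1217 normalized CPM in Scr untreated and 829 to 970 in Scr doxorubicin, and 1090 to 1266 and 938 to 1061 in TRPM2 KO. The 11 HSP70 and HSP110 genes summed to 2759 to 2854 and 2071 to 2609 in Scr, and to 2806 to 3053 and 2468 to 2766 in TRPM2 KO. The HSP90 sum was 3767 to 3879 and 3169 to 3667 in Scr, and 3701 to 4200 and 3470 to 3862 in TRPM2 KO, where the groups overlapped. All 74 members summed to 9753 ± 92.6 (SD, n = 4) and 8736 ± 508 in Scr, and to 10015 ± 409 and 9319 ± 374 in TRPM2 KO.

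Of 35 J-domain genes tested, 3 rose and 2 fell in Scr, and 6 rose and 1 fell in TRPM2 KO. These are 14.3% in Scr and 20% in TRPM2 KO, near the 12.6% and 17.8% of all genes tested. DNAJC9, a J-domain protein that acts on histones, fell in both, from 83.4 ± 3.35 (SD, n = 4) to 63.0 ± 6.90 normalized CPM in Scr and from 76.5 ± 11.6 to 57.8 ± 8.15 in TRPM2 KO. Its log2 fold changes were −0.41 (adjusted p = 0.00964) and −0.40 (adjusted p = 0.00813), and the libraries overlapped in TRPM2 KO. The DNAJC9 call was lost in Scr without the first doxorubicin replicate of Scr13 (adjusted p = 0.0714), and in TRPM2 KO without the first doxorubicin replicate of KO11 or the second untreated one of KO28 (adjusted p = 0.0714 and 0.0533). DNAJC9 overlaps MRPS16 on the same strand, which had −0.20 and 0.00 and did not pass. DNAJB2, a J-domain protein enriched in neurons, rose from 48.2 ± 3.99 to 58.3 ± 2.17 in Scr and from 48.1 ± 5.50 to 62.3 ± 3.51 in TRPM2 KO, by 0.27 and 0.37 on the log2 scale. DNAJC4 rose from 23.7 ± 1.03 to 31.9 ± 5.31 and from 25.6 ± 2.72 to 35.5 ± 3.02, by 0.40 and 0.46. The treated and untreated libraries of DNAJB2 and DNAJC4 did not overlap in either genotype. In Scr the DNAJB2 call was lost without any one Scr library or the second doxorubicin replicate of KO11 (adjusted p up to 0.106). That of DNAJC4 was lost without the first or second untreated or the first doxorubicin replicate of Scr13 (adjusted p = 0.0577, 0.0949 and 0.111), and without that clone its log2 fold change was 0.22 (adjusted p = 0.538). DNAJC4 overlaps NUDT22 on the same strand, which had log2 fold changes of 0.62 in Scr (adjusted p = 0.00317) and 0.37 in TRPM2 KO (adjusted p = 0.0719), so their reads may not be separable.

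Other J-domain genes passed in a single genotype. DNAJC18 rose in Scr by 0.30 (adjusted p = 0.0203) and had 0.20 in TRPM2 KO, and its Scr call was lost without the first untreated replicate of Scr13 or the first doxorubicin replicate of Scr16 (adjusted p = 0.0651 and 0.0857). DNAJB5, DNAJB14, DNAJC16 and DNAJC21 rose in TRPM2 KO by 0.44, 0.41, 0.39 and 0.30, and had 0.25, −0.02, 0.19 and −0.02 in Scr, where DNAJB5 passed without the second untreated replicate of Scr16 (adjusted p = 0.0390). The call for DNAJB14 was lost without the first doxorubicin replicate of KO28 (adjusted p = 0.0683). The call for DNAJC21 was lost without the second doxorubicin replicate of KO11 or any one library of KO28 (adjusted p up to 0.0757). Without clone KO28 all 4 calls were lost, with log2 fold changes of 0.35 for DNAJB5 (adjusted p = 0.133), 0.17 for DNAJB14 (adjusted p = 0.552), 0.23 for DNAJC16 (adjusted p = 0.354) and 0.18 for DNAJC21 (adjusted p = 0.473). The abundant genes DNAJA1, DNAJB6, DNAJC5, the J-domain protein of synaptic vesicles, and DNAJC6, the auxilin that uncoats clathrin vesicles, passed in neither genotype. DNAJA1 had −0.22 in Scr (adjusted p = 0.0618), where it passed with DESeq2 (adjusted p = 0.0463) and library size alone (adjusted p = 0.0301), or without the second doxorubicin replicate of Scr13 or Scr16 (adjusted p = 0.0352 and 0.0225), and −0.02 in TRPM2 KO. DNAJB1, the classic heat-inducible J-domain gene, had 0.04 and 0.07.

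Known HSF1 targets were listed separately. Of the 14 listed, 11 were analysed and tested. HSPA8, HSPH1 and HSPD1 fell in Scr, HSPH1 and HSPD1 fell in TRPM2 KO. The other members of the list did not pass. Among all genes tested 5.53% and 7.6% were called lower and 7.09% and 10.2% higher. The median log2 fold change was −0.22 in Scr and −0.10 in TRPM2 KO. HSPB1 had 0.17 and 0.14 and BAG3, an HSP70 cochaperone of selective autophagy, had −0.18 and 0.39, none of which passed. Of the 6 genes with a heat shock element in the window, HSPA8 and HSPD1 fell in Scr and HSPD1 fell in TRPM2 KO, while HSP90AA1, HSP90AB1, DNAJA1 and DNAJB6 passed in neither. In the list of further HSF1 pathway genes outside the rule, 15 were tested, and 13.3% passed in Scr and 26.7% in TRPM2 KO, beside 12.6% and 17.8% of all genes. CLU, the secreted chaperone clusterin, rose by 0.63 on the log2 scale in Scr and 0.52 in TRPM2 KO, HIF1A rose in Scr by 0.32, and SQSTM1 and ATF3, a receptor of autophagy and a stress transcription factor, rose in TRPM2 KO by 0.51 and 1.02. VCP fell in TRPM2 KO by 0.22. The most abundant of this list, UBB, averaged 523 normalized CPM and did not pass.

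The heat shock factors were expressed at moderate levels. HSF1, the main regulator of the heat shock response, lay at 86.1, 91.3, 91.1 and 94.6 normalized CPM in Scr untreated (Scr13, then Scr16) and at 107, 125, 92.5 and 112 with doxorubicin. In TRPM2 KO HSF1 lay at 81.5, 85.2, 101 and 112 untreated (KO11, then KO28) and at 116, 102, 105 and 119 with doxorubicin. The groups overlapped in both genotypes, and the log2 fold changes of 0.26 and 0.23 did not pass (adjusted p = 0.0538 and 0.0789). In Scr HSF1 passed with a block for clone and replicate number (adjusted p = 0.0418) and with DESeq2 (adjusted p = 0.0342). A filter of 10 reads in every library gave a call too. HSF1 also passed in Scr without the first doxorubicin replicate of Scr16, KO11 or KO28, and without the second untreated replicate of KO28. In TRPM2 KO it passed without either of those KO28 libraries (adjusted p = 0.0328 and 0.0345). HSF2 lay at 44.9, 43.9, 50.9 and 45.4 in Scr untreated and at 36.8, 40.4, 50.4 and 42.1 with doxorubicin, and at 42.3, 42.8, 42.2 and 33.6 in TRPM2 KO untreated and 40.5, 40.2, 36.9 and 38.6 with doxorubicin. It passed in no comparison. HSF4, known for its role in the lens, lay at 23.9, 22.1, 12.8 and 18.7 in Scr untreated and at 38.4, 26.7, 28.5 and 22.0 with doxorubicin, and at 17.03, 16.6, 22.3 and 22.5 in TRPM2 KO untreated and 25.4, 20.2, 33.6 and 23.7 with doxorubicin. It rose in Scr by 0.56 on the log2 scale (SE 0.15, adjusted p = 0.0112), with overlapping groups, and had 0.36 in TRPM2 KO (adjusted p = 0.0935). The HSF4 call was lost without the first doxorubicin replicate of Scr13, the first untreated replicate of Scr16 or the first doxorubicin replicate of Scr16 (adjusted p = 0.0661, 0.0664 and 0.0585), and HSF4 passed in TRPM2 KO without the second doxorubicin replicate of KO28 (adjusted p = 0.0451). HSF5 had at most 0.126 normalized CPM in any library and was not tested.

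**Figure D4:**
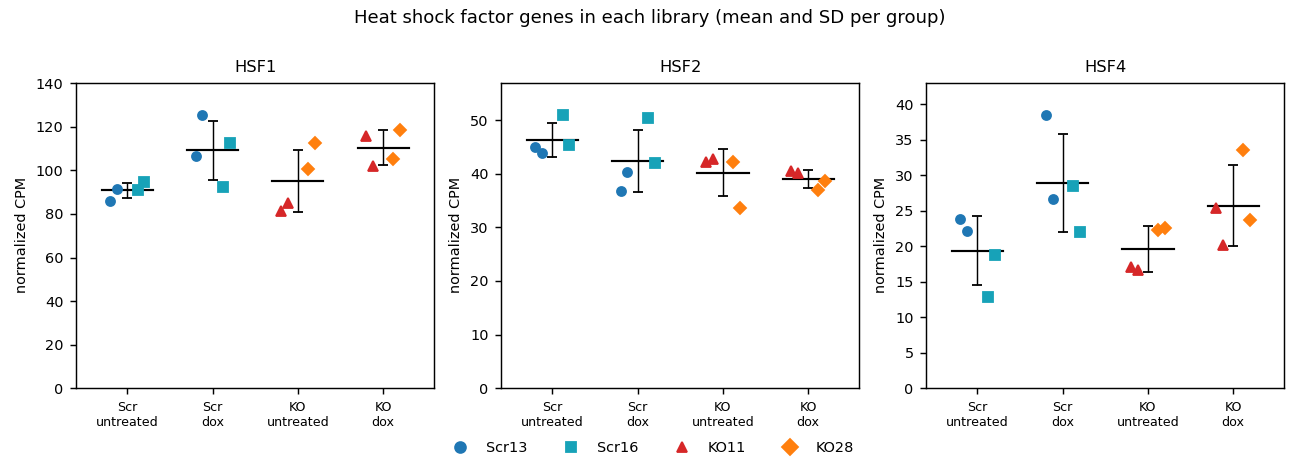
Normalized CPM (y axis, from 0) of HSF1, HSF2 and HSF4 in each library by group (x axis), with clones by symbol and the group mean ± SD (n = 4) in black. HSF4 has higher means with doxorubicin in both genotypes, and its treated and untreated libraries overlap.

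Among the BAG and small heat shock protein genes 1 passed with doxorubicin. BAG1, BAG2, BAG3, BAG4 and BAG5 passed in neither genotype, except that BAG1 was lower in Scr without the second doxorubicin replicate of Scr16 (adjusted p = 0.0110). BAG6, which guards membrane proteins before insertion, fell in TRPM2 KO by 1.42 on the log2 scale (SE 0.46, adjusted p = 0.0311), but its levels were erratic. It lay at 9.76 in the second untreated replicate of KO11, 7.71 in the first untreated replicate of KO28 and 10.8 in the second doxorubicin replicate of Scr16, and between 0.418 and 1.49 in the other 13 libraries. The call was lost without the second untreated replicate of KO11, the first untreated replicate of KO28, or the second doxorubicin replicate of either clone (adjusted p = 0.189, 0.171, 0.0924 for KO11 and 0.0849 for KO28). No tested small heat shock protein gene passed with doxorubicin at the main settings. HSPB1 lay at 136 ± 16.3 (SD, n = 4) and 153 ± 10.8 in Scr, and at 164 ± 26.8 and 180 ± 17.3 in TRPM2 KO. HSPB7 had log2 fold changes of 0.17 and −0.17, HSPB11 −0.12 and −0.18, HSPB8 0.36 and 0.88 (adjusted p = 0.0717, and 0.0229 or 0.0327 without the first doxorubicin replicate of Scr16 or the second of KO11), and HSPB6 and HSPB9 averaged 0.408 and 0.103 normalized CPM and were not tested. With a pseudocount of 4 HSPB8 passed in TRPM2 KO, at a log2 fold change of 0.42 (adjusted p = 0.0423). HSPBAP1 had −0.22 and 0.31.

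The doxorubicin effect was then compared between genotypes with the interaction term. None of 66 members passed, against 0.0261% of all genes tested (4 genes). None passed with edgeR's quasi-likelihood test or DESeq2 either. At an unadjusted p below 0.05 there were 4 members with limma, 5 with the quasi-likelihood test and 7 with DESeq2. The share of all genes below that unadjusted p is not given here, so these counts do not set members apart. The differences for HSPA5, HSPA4 and HSPA8 were 0.26 (SE 0.12), 0.19 (SE 0.09) and 0.13 (SE 0.10), in the direction of a smaller decrease in TRPM2 KO. HSPBP1 and HSPD1 had −0.23 and −0.05, the other way. Over all 66 members 42 differences lay above 0 and 24 below, the lowest being −2.20 for BAG6. The median difference was 0.06 for members and 0.02 for all genes tested. A gene that passed in a single genotype is therefore not shown to respond differently in the other.

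Between genotypes the chaperone genes differed in few cases. In untreated cells 3 of 64 tested members passed, 2 higher and 1 lower in TRPM2 KO, against 4.84% of all 14364 genes tested (2.3% higher and 2.54% lower). After doxorubicin 2 of 64 passed, 1 higher and 1 lower, against 8.69% of 14572 genes (4.52% higher and 4.17% lower). The median log2 difference of members was 0.00 untreated and 0.05 with doxorubicin, beside −0.01 and 0.01 for all genes tested.

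DNAJC15, a J-domain protein of the mitochondrial import motor (chr13:43023203-43114224, plus strand), was lower in libraries labelled TRPM2 KO under both treatments. Untreated, it lay at 14.96 and 23.2 normalized CPM in Scr13, 25.1 and 20.4 in Scr16, 10.6 and 9.22 in KO11, and 7.98 and 5.40 in KO28. With doxorubicin it lay at 15.5 and 15.65 in Scr13, 20.2 and 14.5 in Scr16, 6.08 and 7.81 in KO11, and 8.57 and 7.71 in KO28. Every TRPM2 KO library lay below every Scr library of the same treatment, with an exact permutation p of 0.0286, the smallest that 4 against 4 allows. That p treats the 2 replicates of a clone as independent. So does the main limma test between genotypes, which has no clone term, for every member. The log2 difference was −1.25 untreated (SE 0.20, adjusted p = 3.16e-04) and −1.03 with doxorubicin (SE 0.18, adjusted p = 5.54e-04). DNAJC15 passed under all 22 alternatives in each treatment, including those that left out a clone or summed the reads of each clone. The untreated and treated comparisons use different libraries of the same clones.

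**Figure D5:**
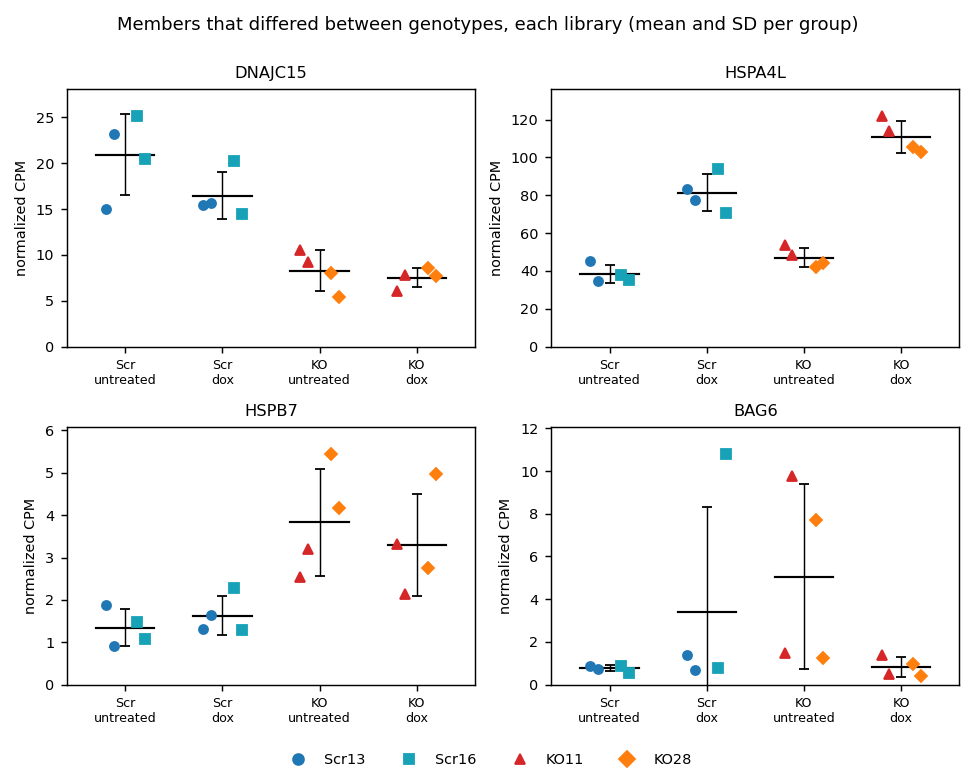
Normalized CPM (y axis, from 0) of DNAJC15, HSPA4L, HSPB7 and BAG6 in each library by group (x axis), with clones by symbol and the group mean ± SD (n = 4) in black, error bars cut at 0. DNAJC15 is lower in all TRPM2 KO libraries than in any Scr library, HSPA4L is higher in TRPM2 KO with doxorubicin, and the high BAG6 values come from 3 single libraries.

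HSPA4L was higher in TRPM2 KO after doxorubicin, at 103 to 122 normalized CPM against 70.6 to 93.6 in Scr, with a log2 difference of 0.45 (SE 0.09, adjusted p = 0.00228). The groups did not overlap. Untreated it overlapped, with a log2 difference of 0.29 that did not pass (adjusted p = 0.172). The call was lost without clone KO11 (adjusted p = 0.117).

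HSPB7, a small heat shock protein known from heart muscle (minus strand of chr1:16014028-16019594), was low but higher in untreated TRPM2 KO. It lay at 1.89, 0.921, 1.47 and 1.08 normalized CPM in Scr and at 2.53, 3.19, 5.43 and 4.16 in TRPM2 KO, with no overlap. The log2 difference was 1.03 (SE 0.26, adjusted p = 0.0211), and it did not pass without any filter on low values, with reads summed per clone or without clones Scr13, Scr16 or KO28. It also did not pass without the second untreated replicate of Scr13, the second of Scr16 or the first of KO28 (adjusted p = 0.0801, 0.0671 and 0.0912). BAG6 passed in untreated cells with a log2 difference of 1.44 (SE 0.40, adjusted p = 0.0409), with 2 high KO libraries given above, and was lost in 6 of the 8 fits that left out a library, all but those without the first untreated replicate of KO11 or the second of KO28 (adjusted p up to 0.199). HSPA2, an HSP70 known from the testis, had −0.50 untreated and −0.49 with doxorubicin and did not pass (adjusted p = 0.121 and 0.0613). With doxorubicin it passed by the quasi-likelihood test, by DESeq2, with clone as a random block and without the first doxorubicin replicate of Scr16. It was not called there with reads summed per clone. Untreated, it passed without the second replicate of KO28. HSPA5 had 0.28 with doxorubicin (adjusted p = 0.0678). It passed with clone as a random block (adjusted p = 0.0434) and with reads summed per clone (adjusted p = 0.0379). A block for replicate number also gave a call (adjusted p = 0.0244), as did leaving out the first doxorubicin replicate of KO28 (adjusted p = 0.0342). HSPB1 had 0.26 and 0.23 and HSPB8 had 1.14 with doxorubicin, none of which passed. With doxorubicin HSPB8 passed with clone as a random block (adjusted p = 0.0442) and without the first replicate of Scr16 (adjusted p = 0.00122). With reads summed per clone it was not called. Both HSPB8 and HSPB1 passed with doxorubicin without the second replicate of KO11 (adjusted p = 0.0496 and 0.0281) or without clone Scr16. HSPA8 had 0.09 untreated and 0.22 with doxorubicin and did not pass (adjusted p = 0.599 and 0.183). HSP90AA1, HSP90AB1, HSP90B1, HSPD1, HSPH1, HSF1, HSF2 and HSF4 passed in neither treatment. Without clone Scr16, HSPA8 and HSPH1 passed as higher with doxorubicin (adjusted p = 0.0301 and 0.0148), and without clone KO11, HSPB1, HSPA13 and DNAJB14 passed untreated, DNAJB14 also without the first replicate of KO11 alone (adjusted p = 0.0343).

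Of the chaperone and HSF1 pathway genes listed outside the naming rule 4 differed between genotypes, all with doxorubicin. They were 1 of 18 tested cochaperones, 1 of 12 mitochondrial genes and 2 of 15 HSF1 pathway genes. These are 5.56%, 8.33% and 13.3%, beside 8.69% of all genes tested, so the lists do not stand out. None of the 18 tested cochaperones passed untreated, and FKBP5 was lower in TRPM2 KO with doxorubicin, by 0.55 on the log2 scale (SE 0.11, adjusted p = 0.00185). Among mitochondrial proteins CLPB, a disaggregase, was higher with doxorubicin by 0.35, and among HSF1 pathway genes SQSTM1 and ATF3 were higher by 0.46 and 1.08. None of the CCT, prefoldin or listed ER genes passed in either treatment.

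Mesenchymal-type markers moved with genotype. Of 7 mesenchymal-type markers tested in untreated cells 4 were higher and 1 (TWIST1) lower in TRPM2 KO, and of 8 tested with doxorubicin 6 were higher and 1 (TWIST1) lower, beside 4.84% and 8.69% of all genes called. VIM, the most abundant, differed by 1.10 and 1.23 on the log2 scale, FN1 by 1.55 and 2.14, and YAP1 by 1.91 and 2.18. The list summed to 431 to 771 normalized CPM in Scr untreated, 742 to 941 in TRPM2 KO untreated, 461 to 683 in Scr doxorubicin and 756 to 1029 in TRPM2 KO doxorubicin. COL1A1 was higher in TRPM2 KO by 1.52 and 1.51. Of the adrenergic markers GATA3 was higher untreated by 0.32. With doxorubicin CD44 rose by 0.95 in Scr and 1.66 in TRPM2 KO, FOSL1 rose by 1.94 in TRPM2 KO, HAND2 rose by 0.31 and 0.21, STMN2 rose by 0.26 in Scr, ISL1 fell by 0.27 and 0.38, and DBH fell by 0.36 and COL1A2 by 0.98 in TRPM2 KO. The part of these markers in the chaperone differences was not tested.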

How the data were processed

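The authors sequenced poly(A) RNA of SH-SY5Y clones with a directional kit and, per the submitters' processing notes, used bcl2fastq, HISAT2 2.1.0, HTSeq, edgeR and GRCh38. The strand setting, the annotation and edgeR's test are not given in the sources used here. The deposited tables hold a signal, normalized CPM made by the authors from counts. All values (100%) were whole multiples of a library's value per read within 0.01 reads, so reads were recovered. Columns with fold changes, p-values and q-values of the authors' own comparisons were not used. All library columns were assigned (0 left over). Deposited factors lay within about 1% of 1 set of TMM factors over 16 libraries, so both tables were compared directly.

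Python 3.11.15, R 4.3.3 and limma 3.58.1 (abundance trend, pseudocount 1) were used. Genotypes were contrasted separately under each treatment (8 libraries) with no clone term, so replicates of a clone counted as independent. Doxorubicin was contrasted with untreated over 16 libraries with clone as a term and 1 shared spread. Positions and overlaps come from GENCODE 29. Alternatives were other filters, pseudocounts and scaling, edgeR 4.0.16, DESeq2 1.42.0, clone and replicate blocks, and leaving out each library and clone. Replicate libraries were not duplicates, with a chi-square per gene of at least 7.79. Nothing states that they came from separate days, so p-values measure the spread between these libraries. Counting floors cover counting error only.

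Members, lists and tests were chosen with earlier results of these data known. TRPM2 was named first, then all tested HSP90, HSPA, HSPH1, HSPD1, HSPE1, HSPB, HSF and BAG members, and J-domain members that passed a test or were among the 5 most abundant. Values in every library are given for members past the threshold with an absolute log2 fold change of at least 0.5 and a mean of at least 5 normalized CPM, and for the HSF members. Of the lists outside the rule, members past 0.5 and the most abundant are named. The per-library values of HSPH1, HSPD1, HSPB7 and BAG6, DNAJB1, NUDT22, MRPS16 and the other listed genes were added after their values were seen. Some adrenergic marker results are not reported here.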

Additional observations from a re-analysis of the deposited data

Results flagged for a closer look

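Among 92 groups of 4 libraries, those of the 23 tested members that passed in any comparison or belong to the HSF family, 5 had a library set apart from the other 3 by a gap above Dixon's critical value. Chance alone flags about 1 in 20 groups. HSPA5 was 152 normalized CPM in the first doxorubicin replicate of Scr13, against 200 to 204 in the other Scr doxorubicin libraries. HSPA4 was 201 in the same library, against 223 to 227. HSPH1 was 299 in the second untreated replicate of Scr16, against 269 to 273. HSF2 was 33.6 in the second untreated replicate of KO28, against 42.2 to 42.8. BAG6 was 10.8 in the second doxorubicin replicate of Scr16, against 0.694 to 1.37.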

How the results depend on the processing

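The count of members that passed was compared across all settings. For TRPM2 KO against Scr, untreated, it was 3, and became 1 with no filter on low values, 1 without clone Scr13, 1 without clone Scr16, 1 without clone KO28 and 5 without clone KO11. Leaving out single libraries gave 1 to 4. With doxorubicin it was 2, and became 5 with clone as a random block, 8 without clone Scr16 and 1 without clone KO11, with 2 to 4 over single libraries. For doxorubicin against untreated in Scr it was 13, and became 2 without clone Scr13 and 7 without clone Scr16, with 6 to 15 over single libraries. In TRPM2 KO it was 14, and became 6 without clone KO11 and 7 without clone KO28, with 12 to 15 over single libraries. Fewer libraries enter the fits without a clone or library, and the cause of the other differences was not tested. The interaction count was 0 under every setting run. All other settings, including edgeR, DESeq2, both pseudocounts and library size alone, kept each count within 1.5 times. Replicate numbers did not pair the libraries, with correlations of same-numbered deviations from −0.03 to 0.09. The replicate block gave 3, 3, 14, 14 and 0 members in the order above, adding HSPA5 for TRPM2 KO against Scr with doxorubicin (adjusted p = 0.0244) and HSF1 for doxorubicin in Scr (adjusted p = 0.0418). For single named members, 106 alternative values lost a call, 58 gained one and no called difference changed sign. Of the 5764 that kept their side of the threshold, 281 changed sign without passing under either setting. At the lowest depth, 10481177 reads, 3 reads are 0.285 normalized CPM. Of the 9 members with a mean below 1 normalized CPM, 8 were not tested in any comparison.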
